A study of Mus musculus with 4 samples.

Results

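The dopamine and adrenergic receptor genes of the mouse hippocampus are described here in mice lacking the taste receptor subunit Tas1r3 and in wild-type mice. The members are the 9 genes of a fixed list, Drd1, Drd2 and Drd5 for dopamine and Adra1a, Adra1b, Adra1d, Adra2a, Adra2c and Adrb1 for noradrenaline and adrenaline. All 9 were present, out of 16146 genes summed from RefSeq transcripts, and all 9 passed the filter on low values. Total RNA of hippocampus was sequenced in 2 libraries of Tas1r3 KO mice (KO-WD) and 2 libraries of WT mice (WT-WD). Both genotypes had eaten a western diet for 18 weeks, so the comparison is of genotype on that diet and no other diet was analysed here. The sources used here do not give the knockout allele, the strain, the sex or the age, nor say whether a library is 1 animal or a pool. The p-values therefore measure only the spread between these libraries, which may be technical.

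Dopamine and noradrenaline reach the hippocampus from brainstem neurons and act there through receptors coupled to G proteins. Drd1 and Drd5 encode the D1-like receptors, which stimulate adenylyl cyclase through Gs, and Drd2 encodes a D2-like receptor, which inhibits it through Gi and Go. Among the adrenergic receptors, Adra1a, Adra1b and Adra1d signal through Gq and phospholipase C, Adra2a and Adra2c inhibit adenylyl cyclase, and Adrb1 stimulates it. In the hippocampus these receptors are known for modulating synaptic plasticity and the storage of memory.

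Values are the authors' normalized signal, added up over a gene's transcripts, in units of which each library holds about the same total. The libraries held an estimated 13507567 and 12938015 reads in KO-WD, and 11592301 and 15957586 reads in WT-WD. Tas1r3 was at 0.887 and 1.85 units in the KO-WD libraries, against 16.1 and 15.9 units in WT-WD, so each library matched its genotype label. The hippocampal markers Prox1 of the dentate gyrus (193.2 and 223.7 units in KO-WD, 182.0 and 195.0 in WT-WD) and Wfs1 of field CA1 (248.7 and 188.9 in KO-WD, 261.5 and 236.1 in WT-WD) were present in every library. Choroid plexus markers summed to 7497 and 3831 units in KO-WD and to 3767 and 1559 units in WT-WD, and all 15 had a higher mean in KO-WD. Oligodendrocyte markers had lower means in KO-WD for 7 of 7 genes. None of the genes of either list passed the test over all genes. In bulk tissue a difference in cell number, cells of neighbouring tissue included, and a difference in RNA per cell cannot be told apart.

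None of the 9 receptor genes passed the test between genotypes. KO-WD was compared with WT-WD by limma on log2(signal + 1) over 15705 genes, with Benjamini-Hochberg adjustment and a threshold of 0.05, and 10 genes or 0.0637% of those tested were called, 0.0509% as higher and 0.0127% as lower in KO-WD. The adjusted p-values of the receptors lay between 0.902 and 0.984, and none had an unadjusted p under 0.05, against 5.28% of all genes. The genotypes did not overlap for 5 of the 9 receptors, against 36.3% of all genes tested. Of these receptors 3 were higher in KO-WD (17.9% of all genes) and 2 lower (18.4% of all genes). The estimated difference was below 0 for 4 of the 9, against 49.9% of all genes. Their median log2 difference was 0.13, against 0.00 over all genes. With 1 library left out, the median of the receptors lay between -0.051 and 0.065, each time below 0.13. The 95% intervals reached between 0.36 and 0.91 to either side of the estimate on the log2 scale, so that smaller differences were not resolved with 2 libraries a genotype.

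**Figure D1:**
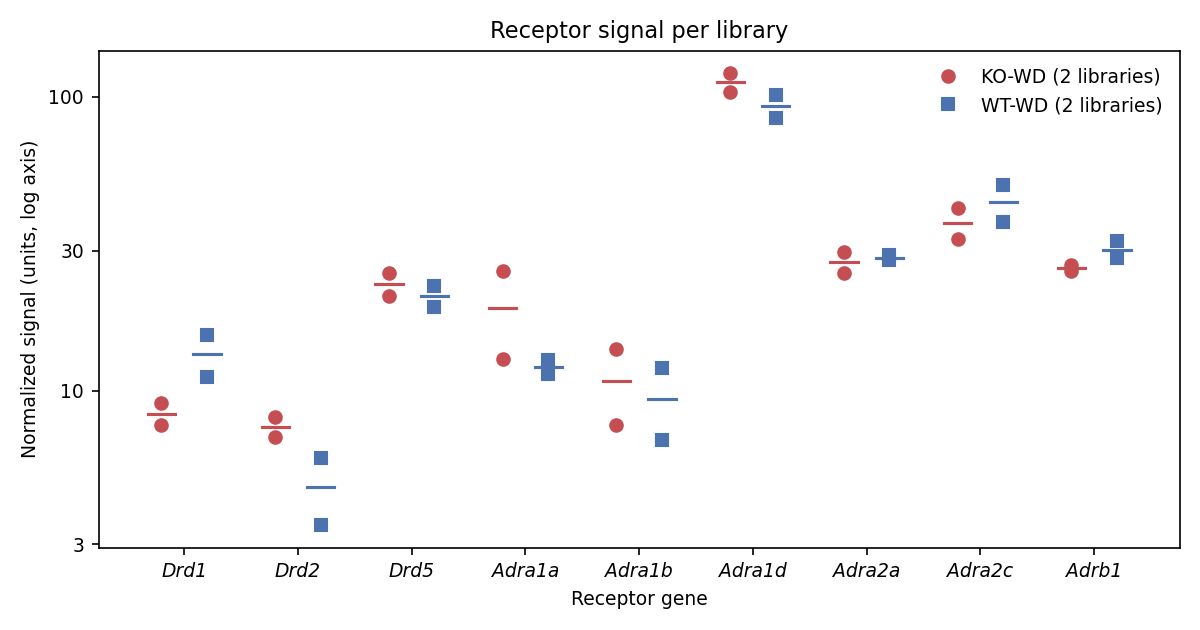
Normalized signal of each receptor gene in each library on a log axis, with KO-WD as circles and WT-WD as squares and the mean of 2 libraries as a bar. Drd1 lies lower and Drd2 higher in both KO-WD libraries than in both WT-WD libraries, while Adra2a and Drd5 overlap between genotypes.

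Drd1, on chromosome 13, encodes the D1 receptor, the main stimulatory dopamine receptor of the forebrain. Its signal was 9.08 and 7.63 units in the KO-WD libraries, against 15.5 and 11.1 units in the WT-WD libraries. Both KO-WD values lay below both WT-WD values, with a log2 difference of -0.60 (SE 0.29, 95% interval from -1.27 to 0.07, unadjusted p = 0.0726, adjusted p = 0.902 in limma). The estimated reads behind these values were 40.95 and 32.97 in KO-WD and 59.9 and 59.3 in WT-WD. Counting error alone gives a standard error of 0.21 on log2 of the signal without the added 1, unlike the scale of the fit.

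The RefSeq promoter table of the assembly GRCm38.p6 lists 2 starts for Drd1, 878 bases apart on the minus strand, and 1 start for Drd2. Bases upstream of these starts are shown for Drd1, whose signal is split over 2 transcripts, and for Drd2. The estimated differences of the 2 genes ran in opposite directions, but neither gene was called. Which start belongs to which transcript of Drd1 was not determined, and a link between these bases and the signal was not tested. The bases that GENCODE M21 annotates as exon are left out, so that the stretch of the first Drd1 start ends 47 bases before it, and the GC box counted in its window is not in the stretch shown. Capitals mark the GC box, GGGCGG or CCGCCC on the other strand, a motif bound by Sp1-type factors.
Drd1 first start, chr13:54055706-54055908, minus strand: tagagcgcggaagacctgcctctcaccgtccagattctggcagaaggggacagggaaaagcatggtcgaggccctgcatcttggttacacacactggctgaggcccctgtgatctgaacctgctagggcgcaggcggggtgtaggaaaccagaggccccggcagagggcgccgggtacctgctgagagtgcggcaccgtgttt
Drd1 second start, chr13:54054781-54055030, minus strand: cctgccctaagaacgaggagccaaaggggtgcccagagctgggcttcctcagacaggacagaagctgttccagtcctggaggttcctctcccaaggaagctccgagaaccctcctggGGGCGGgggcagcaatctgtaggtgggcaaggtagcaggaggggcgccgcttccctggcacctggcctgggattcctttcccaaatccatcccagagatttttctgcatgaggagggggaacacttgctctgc
Drd2 start, chr9:49340153-49340402, plus strand: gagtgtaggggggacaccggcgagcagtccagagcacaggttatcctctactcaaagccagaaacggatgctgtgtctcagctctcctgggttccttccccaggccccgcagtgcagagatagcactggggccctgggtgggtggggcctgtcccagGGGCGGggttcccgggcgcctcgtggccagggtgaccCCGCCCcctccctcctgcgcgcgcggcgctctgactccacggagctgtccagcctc

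The table holds windows of 300 bases for 7 of the 9 receptor genes, 9 windows in all, and none for Adra1a and Adra1d. GC content was above the median of all 32851 windows, 52.7%, in 7 of the 9 windows, and was highest for Adrb1 at 72.3%. The GC box, searched on both strands, occurred in 7 of the 9 windows and in 35.7% of all windows. The cAMP response element TGACGTCA occurred in 0 of the 9 and in 1.79% of all windows, and TATAAA, searched on both strands, in 1 of the 9, that of Adra2a, and in 13.6% of all windows. These matches describe the letters in the windows and say nothing of the factors.

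Drd2, on chromosome 9, encodes the inhibitory D2 receptor, a target of antipsychotic drugs. Its signal was 8.15 and 6.94 units in the KO-WD libraries, against 5.91 and 3.49 units in the WT-WD libraries. Both KO-WD values lay above both WT-WD values, with a log2 difference of 0.61 (SE 0.34, 95% interval from -0.20 to 1.42, unadjusted p = 0.117, adjusted p = 0.902 in limma). It had the fewest reads of the 9 genes, an estimated 36.7 and 30 in KO-WD and 22.9 and 18.6 in WT-WD. Counting error alone gives a standard error of 0.29 on log2 of the signal without the added 1, unlike the scale of the fit.

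Drd5 encodes the D5 receptor, the other D1-like receptor, and lies on chromosome 5. It was at 20.98 and 25.2 units in KO-WD and at 22.7 and 19.3 units in WT-WD. The genotypes overlapped, and the log2 difference of 0.13 had a 95% interval from -0.38 to 0.64 (adjusted p = 0.957 in limma).

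The ratio of Drd1 to Drd2 set both genes against each other within a library, and was looked at after the values had been seen. In units of signal it was 1.11 and 1.10 in the KO-WD libraries, against 2.61 and 3.19 in the WT-WD libraries. The genotypes did not overlap, with an exact permutation p of 0.333, the smallest that 2 libraries against 2 can give. Per kilobase of transcript, Drd1 was below Drd2 in both KO-WD libraries, at 0.805 and 0.794 of it. In both WT-WD libraries Drd1 was above Drd2, at 1.89-fold and 2.30-fold. Divided by coding length alone, Drd1 was above Drd2 in KO-WD too, at 6.785 and 5.702 against 6.117 and 5.212 units per kilobase. The order of the 2 genes in KO-WD thus depended on the length used. The sum of the 3 dopamine receptor genes overlapped between the genotypes, at 38.2 and 39.8 units in KO-WD and at 44.1 and 33.9 units in WT-WD.

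Adra1d had the highest signal of the receptors, also per length. This alpha-1D receptor gene on chromosome 2 was at 104.1 and 120.2 units in the KO-WD libraries and at 84.8 and 101.3 units in WT-WD. Both KO-WD values lay above both WT-WD values, though the nearest values of the genotypes, 104.1 and 101.3 units, lay closer together than the libraries of either genotype. On the log2 scale the difference was 0.27 (SE 0.15, 95% interval from -0.09 to 0.63, unadjusted p = 0.121, adjusted p = 0.902 in limma). With an estimated 328.2 to 540.2 reads a library, counting error gives a standard error of 0.07 on log2 of the signal without the added 1.

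Adra1a encodes the alpha-1A receptor and lies on chromosome 14. Its signal was 25.5 and 12.8 units in the KO-WD libraries and 12.7 and 11.4 units in the WT-WD libraries. KO-WD replicate 1 stood apart, whereas replicate 2 was close to the higher WT-WD library. The estimated log2 difference was 0.55 (SE 0.34, 95% interval from -0.25 to 1.35, adjusted p = 0.905 in limma), and leaving out KO-WD replicate 1 gave 0.08, while leaving out KO-WD replicate 2 gave 1.02. Adra1b, the alpha-1B receptor gene on chromosome 11, was at 13.9 and 7.67 units in KO-WD and at 6.79 and 11.97 units in WT-WD. Its log2 difference of 0.18 (95% interval from -0.73 to 1.08, adjusted p = 0.969 in limma) changed sign with 1 library left out, to -0.21 for KO-WD replicate 1 and to -0.19 for WT-WD replicate 1. Omitting replicate 2 gave 0.57 in the case of KO-WD and 0.54 in that of WT-WD.

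The 2 alpha-2 receptor genes encode inhibitory receptors that also act as autoreceptors on noradrenergic terminals. Adra2a, on chromosome 19, was at 29.7 and 25.1 units in KO-WD and at 28.9 and 27.8 units in WT-WD. The WT-WD values lay between the KO-WD values, with a log2 difference of -0.05 (95% interval from -0.51 to 0.41, adjusted p = 0.984 in limma), which was 0.07 with KO-WD replicate 2 left out and -0.17 with KO-WD replicate 1 left out. Adra2c, on chromosome 5, was at 32.8 and 41.8 units in KO-WD and at 37.4 and 50.2 units in WT-WD. The genotypes overlapped, with a log2 difference of -0.22 (95% interval from -0.73 to 0.29, adjusted p = 0.926 in limma).

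Adrb1 encodes the beta-1 receptor, which couples noradrenaline to cAMP, and lies on chromosome 19. It was at 25.6 and 26.9 units in the KO-WD libraries and at 28.2 and 32.2 units in WT-WD. Both KO-WD values lay below both WT-WD values, with a log2 difference of -0.20 (95% interval from -0.65 to 0.26, adjusted p = 0.926 in limma).

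**Figure D2:**
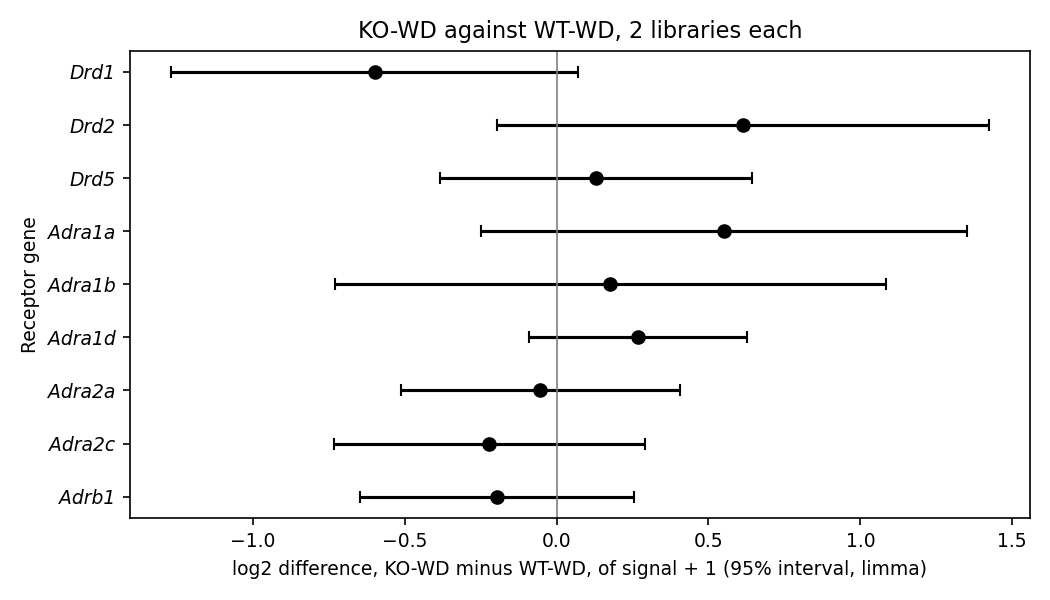
log2 difference of each receptor gene, KO-WD minus WT-WD, on signal + 1, with the 95% interval from limma. Every interval includes 0, and the widest is that of Adra1b, from -0.73 to 1.08.

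Levels of different genes were compared per kilobase of the GENCODE transcript matched to each RefSeq transcript, since the deposited signal shows no division by length. On this scale Adra1d averaged 59.1 ± 5.97 units per kilobase in KO-WD and 48.99 ± 6.15 in WT-WD (SD, n = 2 each). Its lowest library, 44.6 units per kilobase, was above the highest library of any other receptor, 14.6 for Adra2c. The matched transcript of Adra1d has 1899 bases and its coding part 1686, while those of the other receptors have between 2337 and 4137 bases, so that the untranslated parts differ in annotation. Divided by coding length alone, Adra1d averaged 66.5 ± 6.72 units per kilobase in KO-WD and 55.2 ± 6.93 in WT-WD, and Adra2c 27.2 ± 4.63 in KO-WD and 31.9 ± 6.58 in WT-WD (SD, n = 2 each).

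Below Adra1d, the order of levels per kilobase of transcript was Adra2c, Adrb1, Adra2a, Drd5, Adra1a, Adra1b, Drd1 and Drd2. Over the 4 libraries the ranges of neighbours in this order overlapped, except for those of Adra1d and Adra2c and those of Adrb1 and Adra2a. Adrb1 ranged from 8.66 to 10.9 units per kilobase and Adra2a from 6.98 to 8.28. Divided by coding length alone, these ranges overlapped, from 18.28 to 23.06 for Adrb1 and from 17.98 to 21.31 for Adra2a. On that scale the ranges of Adra2c and Adrb1 did not overlap. At the low end Drd1 ranged from 2.16 to 4.39 and Drd2 from 1.37 to 3.20 units per kilobase. Drd5 was above Drd1 per kilobase in every library, 2.58-fold and 3.70-fold in KO-WD and 1.64-fold and 1.94-fold in WT-WD. By the union of all annotated exons, the place of Adra1a was the lowest of the 9, since its annotated exons add up to 8728 bases.

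**Figure D3:**
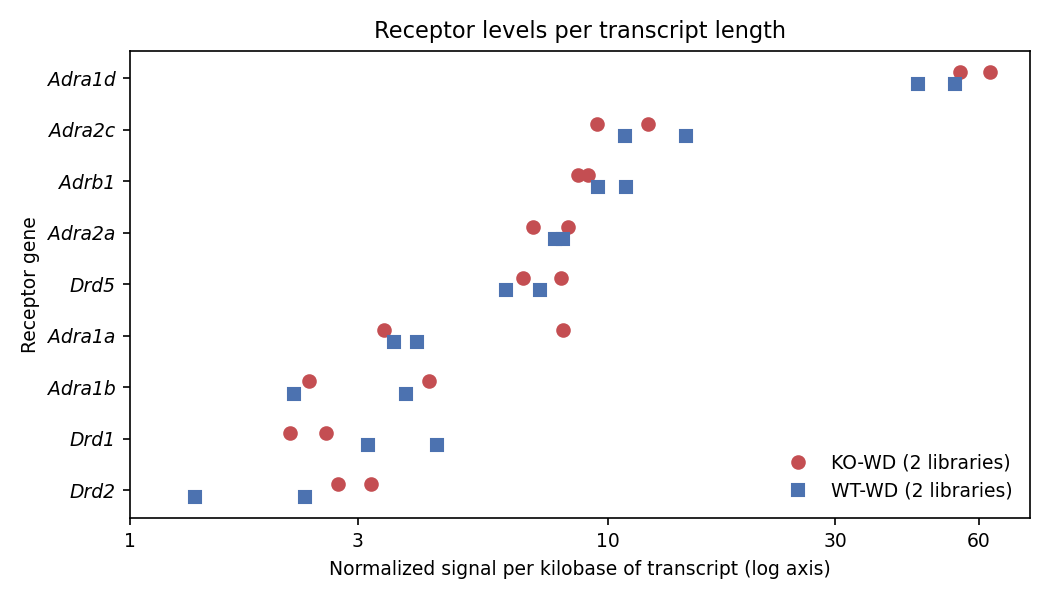
Normalized signal of each receptor gene per kilobase of matched transcript on a log axis, with KO-WD as circles above and WT-WD as squares below. Adra1d lies between 44.6 and 63.3 in all libraries, and every other receptor lies at or under 14.6.

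The 9 receptors together made up 0.00901% and 0.00916% of the library signal in KO-WD and 0.00811% and 0.00898% in WT-WD. Of their summed signal, dopamine receptors took 14.2% and 14.5% in KO-WD, against 18.2% and 12.6% in WT-WD, and the genotypes overlapped. Within the dopamine receptors, the share of Drd1 was 23.8% and 19.2% in the KO-WD libraries and 35.1% and 32.8% in the WT-WD libraries. The share of Drd2 was 21.3% and 17.4% in KO-WD and 13.4% and 10.3% in WT-WD. Both of these shares were apart between the genotypes. The exact permutation test (two-sided) gave p = 0.333 for each, the smallest that 2 libraries against 2 can give. Shares of the same sum do not count as separate results. The share of Drd5 overlapped, at 54.9% and 63.4% in KO-WD and 51.5% and 56.9% in WT-WD.

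Within the adrenergic receptors, the alpha-1 genes added together took more of the signal in KO-WD, and the alpha-2 genes together and Adrb1 less. The alpha-1 share was 61.95% and 60% in the KO-WD libraries and 52.4% and 53.1% in the WT-WD libraries. The alpha-2 share was 27.0% and 28.5% in KO-WD, against 33.4% and 33.2% in WT-WD. The share of Adrb1 was 11.0% and 11.5% in KO-WD, against 14.2% and 13.7% in WT-WD. For each of the 3 classes the difference between genotypes was larger than the spread within them, and the exact permutation test (two-sided) gave p = 0.333, the smallest it allows. The 3 shares sum to the whole and do not count as separate results. Not every gene of a class followed it, as the shares of Adra1a, Adra1b and Adra2a overlapped between genotypes. The share of Adra1d was 45.0% and 51.3% in KO-WD, against 42.6% and 43.1% in WT-WD. That of Adra2c was 14.2% and 17.8% in KO-WD, against 18.8% and 21.4% in WT-WD. In summed signal, the alpha-1 genes were at 143.5 and 140.6 units in KO-WD and at 104.3 and 124.7 units in WT-WD, while the alpha-2 genes overlapped, at 62.5 and 66.9 units in KO-WD and at 66.4 and 78.0 units in WT-WD.

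**Figure D4:**
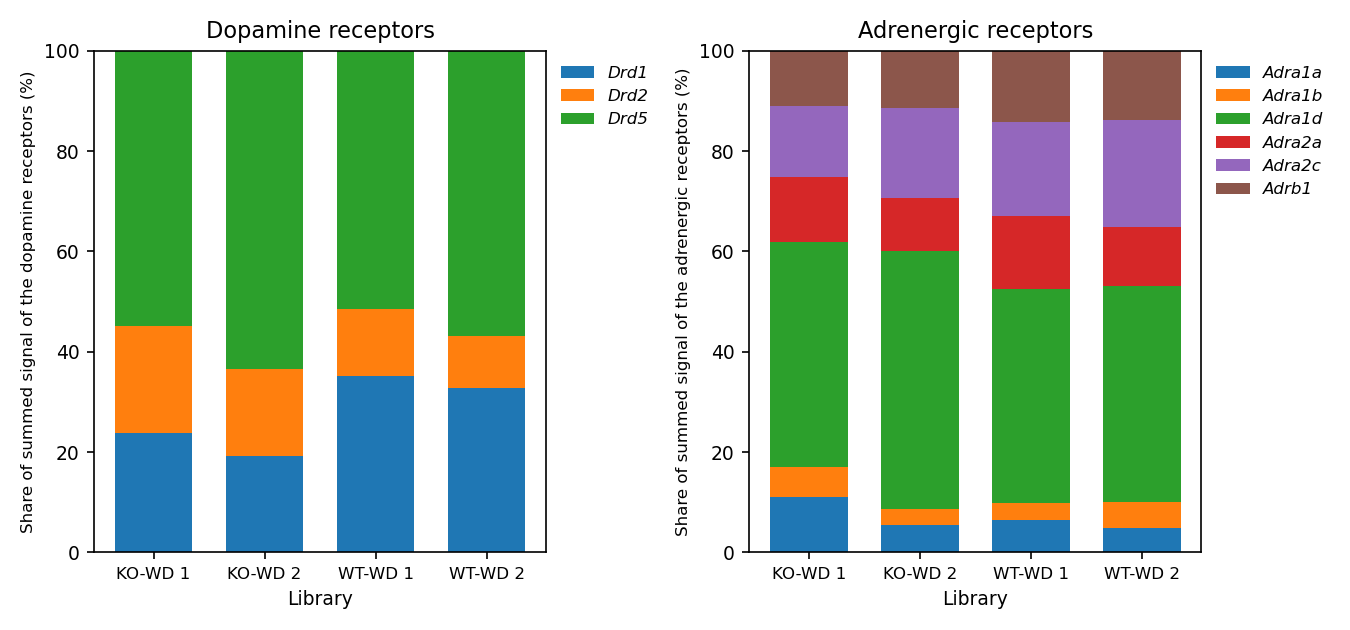
Share of each gene in the summed signal of the dopamine receptors (left) and of the adrenergic receptors (right), in percent, with 1 bar for each library and KO-WD left of WT-WD. Drd1 holds at most 23.8% of its bar in KO-WD and at least 32.8% in WT-WD, and Adra1d holds at least 45.0% in KO-WD and at most 43.1% in WT-WD.

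Of the 9 genes, 6 are represented by 1 transcript each, and Drd1, Adra1a and Adra1b by several. Single transcripts were tested by limma over 29293 transcripts, of which 0 or 0.00% were called and 5.69% had an unadjusted p under 0.05. Of the 15 receptor transcripts, 14 passed the filter, 0 were called, and 1 had an unadjusted p under 0.05. The genotypes did not overlap for 6 of the 14 tested, against 35.0% of all transcripts tested, of which 17.1% were higher and 17.9% lower in KO-WD. A difference below 0 was found for 50.4% of all transcripts. The lncRNA genes Gm46111, Gm26560, Gm39938 and Gm14285 overlap Drd2, Drd5 and Adra1d in the RefSeq table and are not in the tables used here, so the values of these 3 genes could include their reads if strand was not used. The sources used here do not say how the authors divided reads between the transcripts of a gene.

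The transcript with the small p-value was NM_001271759, 1 of the 4 transcripts of Adra1a. It was at 11.7 and 6.62 units in the KO-WD libraries, against 1.17 and 0.0276 units in the WT-WD libraries. The estimated reads were 52.99 and 28.6 in KO-WD and 4.53 and 0.147 in WT-WD. It held 46.1% and 51.7% of the signal of Adra1a in KO-WD and 9.21% and 0.242% in WT-WD. The log2 difference was 2.72 (SE 0.63, unadjusted p = 0.00977, adjusted p = 0.816 in limma). The other 3 transcripts of Adra1a overlapped between genotypes.

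Drd1 has the transcripts NM_001291801 and NM_010076, with 1 coding exon. NM_001291801 held 79.0% and 6.13% of the signal of Drd1 in the KO-WD libraries and 78.7% and 78.5% in the WT-WD libraries. KO-WD replicate 2 thus stood apart from the other libraries, with an estimated 2.02 reads of this transcript and 30.95 of NM_010076. The lower total of Drd1 was seen in both KO-WD libraries, in 1 of them with the usual split and in the other with the reverse. The log2 differences were -1.71 for NM_001291801 (SE 0.95, adjusted p = 0.921 in limma) and 0.35 for NM_010076 (SE 0.68, adjusted p = 0.983 in limma).

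The split of Adra1b over its 3 transcripts varied between libraries. Its transcript NM_007416 was at 1.90 and 2.62 units in KO-WD and at 6.10 and 6.996 units in WT-WD, with a log2 difference of -1.22 (SE 0.47, unadjusted p = 0.0547, adjusted p = 0.883 in limma). NM_001284381 was at 8.45 and 0.486 units in KO-WD and at 0.0663 and 0.479 units in WT-WD. It reached 1 unit in KO-WD replicate 1 alone and was not tested. In the other 3 libraries it lay under the value of 3 reads, between 0.563 and 0.775 units.

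**Figure D5:**
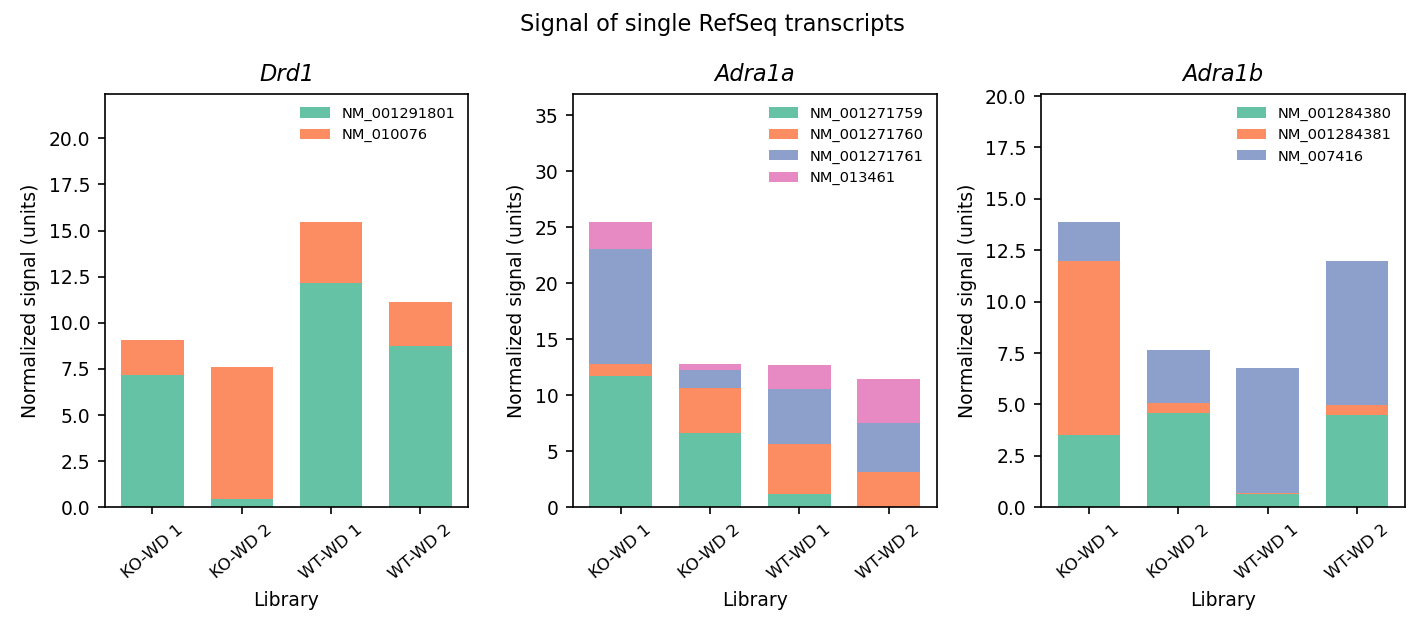
Normalized signal of the single transcripts of Drd1, Adra1a and Adra1b, stacked for each library with KO-WD left of WT-WD. NM_001271759 of Adra1a is at 11.7 and 6.62 units in KO-WD and at 1.17 and 0.0276 units in WT-WD, and the split of Drd1 in KO-WD replicate 2 is the reverse of that in the other libraries.

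The surroundings of the receptors in the signalling pathway were followed in 6 lists with 87 tested genes, of which 0 were called and 6 had an unadjusted p under 0.05 in limma, 6.90% against 5.28% of all genes. Their median log2 difference was 0.05, against 0.0003 over all genes. The genotypes did not overlap for 34.5% of these pathway genes, against 36.3% of all genes. Among the 15 tested genes of catecholamine synthesis, transport and breakdown, 8 had higher and 7 lower means in KO-WD, with a median log2 difference of 0.03 and 3 with an unadjusted p under 0.05 in limma. Slc29a4, a low-affinity monoamine transporter, was at 95.7 and 87.9 units in KO-WD and at 66.7 and 66.1 units in WT-WD (log2 difference 0.46, SE 0.14, adjusted p = 0.848 in limma). Qdpr, which regenerates the cofactor of tyrosine hydroxylase, was at 213.2 and 218.1 units in KO-WD and at 262.8 and 301.5 units in WT-WD (log2 difference -0.38, SE 0.12, adjusted p = 0.848 in limma).

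G protein subunits and effectors that the receptors act through gave differences in both directions. Of 9 G protein alpha subunits, 4 had higher and 5 lower means in KO-WD, with a median log2 difference of -0.003. Gnas, which encodes Gs, was at 3356 and 2902 units in KO-WD and at 3145 and 3270 units in WT-WD. Gnao1, which encodes Go, was at 1201 and 1248 units in KO-WD, against 1348 and 1381 units in WT-WD (log2 difference -0.16, adjusted p = 0.910 in limma). Gnaz, another inhibitory subunit, overlapped, with a log2 difference of 0.15. Of 23 cAMP effectors, 8 had higher and 15 lower means (median -0.02), and 3 had an unadjusted p under 0.05 in limma. Of these 23, 5 were higher without overlap in KO-WD, against 17.9% of all genes, and 7 lower without overlap, against 18.4%. Among them Adcy8, a calcium-stimulated adenylyl cyclase, was at 42.2 and 35.2 units in KO-WD, against 58.0 and 79.5 units in WT-WD (log2 difference -0.80, SE 0.21, adjusted p = 0.726 in limma). Adcy6 ran the other way, at 147.5 and 175.2 units in KO-WD, against 118.1 and 123.1 units in WT-WD (log2 difference 0.41, SE 0.13, adjusted p = 0.876 in limma). The most abundant, the adenylyl cyclase Adcy1 and the protein kinase A subunit Prkar1a, had log2 differences of 0.11 and -0.13. Of 11 genes of the Gq and phospholipase C branch, 6 had higher and 5 lower means (median 0.01), and 0 had an unadjusted p under 0.05 in limma. In this branch the log2 differences were -0.10 for the phospholipase Plcb1, 0.10 for the protein kinase C gene Prkca and -0.07 for Prkcb.

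Transcripts of genes whose proteins switch receptors off or hold them in place were measured as well. Of 14 genes for receptor kinases, arrestins and RGS proteins, 10 had higher and 4 lower means in KO-WD (median 0.07). Grk2, the kinase first named for beta receptors, was at 594.9 and 582.1 units in KO-WD and at 591.3 and 610.0 units in WT-WD. The log2 difference was 0.002 for the arrestin Arrb1 and 0.16 for Rgs8. Rgs14, an RGS protein of field CA2, was at 256.2 and 259.5 units in KO-WD, against 213.2 and 229.9 units in WT-WD (log2 difference 0.22, adjusted p = 0.902 in limma). Of 15 receptor partners and GIRK channels, 13 had higher and 2 lower means (median 0.10). Ncs1, a calcium sensor that binds the D2 receptor, was at 701.5 and 672.2 units in KO-WD, against 601.9 and 587.4 units in WT-WD (log2 difference 0.21, adjusted p = 0.902 in limma). The log2 difference was 0.05 for Ppp1r9b, a spine scaffold that binds D2 and alpha receptors, 0.09 for the postsynaptic scaffold Dlg4 and 0.22 for the polarity scaffold Scrib. Of the receptors outside the list, Adrb3, the beta-3 receptor, was measured at 1.56 and 1.39 units in KO-WD and at 2.22 and 3.20 units in WT-WD.

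Striatum, a forebrain region rich in Drd1 and Drd2, was followed by 10 tested markers. Their summed signal was 681.8 and 682.8 units in KO-WD, against 598.2 and 570.5 units in WT-WD, with 7 higher and 3 lower means and a median log2 difference of 0.21. Pde10a was at 235.7 and 241.0 units in KO-WD, against 210.4 and 194.7 units in WT-WD (adjusted p = 0.902 in limma). The log2 difference was 0.18 for Ppp1r1b, a phosphatase inhibitor regulated by dopamine, and 0.38 for Penk, an enkephalin precursor, and for both the genotypes did not overlap. Adora2a, the marker of striatal neurons with D2 receptors, was at 3.31 and 5.79 units in KO-WD and at 3.72 and 1.68 units in WT-WD. Thalamus markers summed to 157.0 and 117.7 units in KO-WD and to 149.0 and 158.2 units in WT-WD, with a median log2 difference of -0.12 over 7 genes. The log2 difference was 0.67 for Tcf7l2, 0.09 for Prkcd and -0.67 for Slc17a6. The part of neighbouring regions in the levels of Drd1 and Drd2 was not tested.

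Other cell types differed in the direction of their marker lists, with 0 genes called in any list in limma. The choroid plexus median log2 difference was 0.97, and 7 of its 15 genes had an unadjusted p under 0.05, as had 5 of 7 oligodendrocyte and 3 of 6 vascular genes. Over the 9 marker lists this was so for 20 of 85 tested genes, 23.5% against 5.28% of all genes, and the genotypes did not overlap for 54.1%, against 36.3% of all genes. These lists were chosen with earlier results of these data known, and markers of the same cell type can move together. The percentages are therefore not a test of the lists. In choroid plexus the transthyretin gene Ttr overlapped, at 6440 and 3078 units in KO-WD and at 3212 and 1223 units in WT-WD. Otx2 (log2 difference 1.34) and F5 (1.36, adjusted p = 0.125 in limma) did not overlap. Oligodendrocyte markers had a median of -0.45, with -0.45 for Mag and -0.27 for Mobp. All 6 vascular markers had lower means (median -0.50), with -0.56 for Pecam1, -0.36 for Flt1, -0.44 for Rgs5 and -0.56 for Myh11. Of 8 astrocyte markers 6 had a log2 difference below 0 (median -0.08), with -0.40 for Gfap, -0.57 for Aqp4, -0.07 for Slc1a3 and -0.04 for Slc1a2. Of 6 microglia markers 5 had lower means (median -0.18), with -0.27 for P2ry12, -0.13 for C1qa and -0.40 for Trem2. Among neurons, 12 of 15 hippocampal subfield markers had a log2 difference above 0 (median 0.15), with 0.45 for Dsp, 0.15 for Fibcd1 and 0.27 for Grik4. Of 11 interneuron markers 6 had higher and 5 lower means (median 0.05), with -0.06 for Gad1, -0.16 for Sst, -0.57 for Vip and -0.22 for Reln. The part of these cell types in the receptor values was not tested.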

How the data were processed

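Per the labels' protocols, libraries of hippocampal RNA were built with Ion Total-RNA Seq chemistry. Alignment and analysis tools, by the submitters' processing notes, were STAR and Partek with mm39, with no versions named. The authors deposited 1 table of normalized signal per library, with the same 30108 RefSeq transcripts, scaled to nearly equal totals. The sources used here do not give the normalization method, the read division between transcripts or the strand use.

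A constant of 0.0001, which seems to have been added, was subtracted. Names came from RefSeq and GENCODE M21 tables of GRCm38 (30073 and 3 transcripts matched, 32 not), used for names, chromosomes, lengths and promoter sequence alone. Transcripts were summed per gene. Features that reached 1 unit in 2 or more libraries were compared in limma 3.58.1 (R 4.3.3, intensity trend, robust moderation, genotype as the only term, 2 residual degrees of freedom) on log2(signal + 1), which understates changes of low genes. Tests are two-sided. The step of low values gave the value of 1 read, but between 16.4% and 23.2% of transcripts under 20 reads (35.3% to 53.2% in genes with 1 transcript) were whole within 0.02 read, so no count model was used. Estimated reads and the floor of 3 reads cover counting error only. The fit was tested on simulated data.

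Every listed receptor is named. In each other list the 2 genes with the smallest unadjusted p and the 2 with the highest mean are named, except for some genes that are not reported here. Prox1, Wfs1 and Adora2a were chosen after their values were seen. The receptors and lists were chosen with earlier results of these data known. Alternatives were other scalings, filters, pseudocounts and moderation, voom weights, coding transcripts, the replicate number as a block, and leaving out each library.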

Additional observations from a re-analysis of the deposited data

How the results depend on the processing

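None of the 9 receptor genes passed the threshold in the deposited data under the 14 alternatives tried, where the lowest adjusted p in limma was 0.49, for Adra1a, and 123 of 126 member comparisons kept their direction. The exceptions were Adra1b, between -0.21 and 0.57 on the log2 scale when 1 library was left out (-0.19 without WT-WD replicate 1), and Adra2a, between -0.17 and 0.065. Leaving out 1 library moved the log2 difference between -0.82 and -0.38 for Drd1, 0.30 and 0.93 for Drd2, 0.0027 and 0.26 for Drd5, 0.08 and 1.02 for Adra1a, 0.14 and 0.40 for Adra1d, -0.43 and -0.01 for Adra2c, and -0.29 and -0.10 for Adrb1.

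The count of 10 called genes was 0 in limma without trend and robust moderation (951 at an unadjusted p under 0.05), 1 with coding transcripts alone, and with replicate 1 left out it was 94 (KO-WD) or 25 (WT-WD), with replicate 2 left out 75 (KO-WD) or 18 (WT-WD), the lone library being assumed to vary like the others. With the replicate block it was 47. The labels do not say that the numbers mark pairs, and same-numbered deviations correlated at 0.0389 over genes, so the block is not read further.

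Single transcripts changed direction in 6 of 191 comparisons. With 1 library left out, these were NM_010076 (between -0.39 and 1.10), NM_001271760 (between -1.21 and 0.071), NM_001271761 (between -1.11 and 0.995, and 0.019 without WT-WD replicate 1), NM_001284380 (between -0.13 and 1.63) and NM_007417 (between -0.17 and 0.065). NM_001271759 stayed higher in KO-WD, between 2.18 and 4.54, with adjusted p between 0.665 and 0.922. Per kilobase, the difference in the share of the adrenergic receptors was 6.999 percentage points for alpha-1 (8.22 by signal) and -4.47 for alpha-2 (-5.52 by signal).

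Without 1 library, the median log2 difference lay between -0.051 and 0.065 for the receptors, -0.078 and 0.010 for G protein alpha subunits, -0.015 and 0.13 for desensitization and RGS genes, -0.30 and 0.036 for thalamus, 0.49 and 1.31 for choroid plexus, 0.16 and 0.22 for hippocampal subfields, -0.45 and -0.32 for oligodendrocytes, and -0.24 and -0.069 for microglia. The cause of these shifts was not tested. Depth limits Drd2 most, with an estimated 18.6 to 36.7 reads a library.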
